A study of Mus musculus with 30 samples.

Results

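The naive arm of the study holds 10 of the 30 deposited samples: 5 hearts labelled S55L and naive, and 5 labelled wild type (WT) and naive, chosen by these labels alone. S55L mice carry a point mutation, p.S55L, in CHCHD10. Naive mice of both genotypes were aged to 100 days, and the labels name no breeding, diet or other agent for them. The labels used here give neither strain, sex, zygosity nor the part of the heart taken, and nothing in them says that every library is its own mouse, which means that p-values reflect only how these libraries vary. Fitted in the same model were 2 postpartum (PP) groups, WT PP and S55L PP, from mice bred at 65 days and killed 0 days after birth. RNA was read as 3' tags (Lexogen QuantSeq FWD), and values are read counts in CPM, scaled by library depth and a trimmed-mean (TMM) factor.

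CHCHD10 is a small protein of the mitochondrial intermembrane space. The matching human mutation causes a disorder with motor neuron disease, dementia and muscle weakness, and mutant protein is known to aggregate in mitochondria and to raise a stress response driven by the transcription factor ATF4. Adult heart muscle depends on mitochondria for nearly all of its ATP, and a stressed heart is known to return in part to genes of the fetal program.

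The libraries of the genotypes differed in more than genes. Reads on genes ran from 1418715 to 2307283 in WT naive and from 3369420 to 5131316 in S55L naive libraries. The first principal component of log2 CPM, with 61.5% of the variance, put all 5 S55L naive libraries on 1 side and all 5 WT naive on the other, and WT naive 1, from plate row A, stood apart on the second (8.15%). All 5 WT naive libraries lay in plate column 1 and all 5 S55L naive libraries in plate column 2, as the well codes of the deposited columns give them, so among naive libraries plate column and genotype cannot be told apart. A plate column term could be fitted only through the postpartum libraries, of which 1 WT library lay in column 2 and 3 in column 1, and 1 S55L library in column 2 and 3 in column 3. No S55L PP library lay in column 1, so the step from column 1 to column 2 rests on 1 library, WT PP 1. Reads outside genes made up 9.90% of WT PP 1, against 5.65% to 6.96% of WT PP 3 to 5. They made up 10.1% of WT naive 1 and 9.62% of S55L PP 1. All 3 of these libraries are labelled plate row A, though a second column with the counts of WT PP 1 is labelled row B. Whether plate row or a trait of WT PP 1 moved calls in the plate column fit was not tested. Reads mapped at several places made up 24.7% to 27.3% of each WT naive and 18.4% to 21.2% of each S55L naive library. Mitochondrially encoded genes took 19.1% to 23.7% and 13.9% to 15.2% of the reads on genes. Both shares separated the genotypes. A fit without the mitochondrially encoded genes called 5187 genes, of which 5162 were also called in the same direction in the main fit given below. Beyond that, the part of these shares in the results was not tested. Heart muscle genes defined all 10 libraries (the summed CPM of the 16 ventricular cardiomyocyte markers was 87799.5 to 117342 in WT and 52753 to 71820.2 in S55L), while none of the 17 T and NK cell or the 12 neutrophil markers had enough counts to be tested.

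Of 11945 genes tested, 43.5% differed between the genotypes (edgeR quasi-likelihood F test, p adjusted by Benjamini-Hochberg, threshold 0.05), with 21.9% higher and 21.6% lower in S55L, and these shares are the background for every gene group below. At least 4-fold, 358 genes were higher and 210 lower, and at least 16-fold, 58 higher and 14 lower. The share called grew with expression, from 35.5% of the genes under 5 CPM to 63.8% of the 235 genes over 500 CPM. Among the latter the calls leaned downwards, with 55 higher and 95 lower, whereas the classes below had close numbers of each, such as 1055 higher and 977 lower between 20 and 100 CPM. Genes called higher gained 129713 CPM in all and genes called lower fell by 270228 CPM. These CPM carry trimmed-mean scaling factors of 0.868 to 1.001 in WT naive and 1.05 to 1.097 in S55L naive libraries. A lower factor raises every CPM of a library, so the excess of loss over gain depends on the scaling. The 50 most abundant genes took 34.7% ± 0.900 of the reads in S55L naive libraries against 44.6% ± 2.67 in WT naive (SD, n = 5 each). An exact 2-sided permutation test gave p = 0.0079, which is the smallest that 5 against 5 allows (adjusted p = 0.024 over 3 library values). With libraries scaled to their total counts instead of trimmed means, all genes shifted upwards by a median of 0.24 on the log2 scale, and the calls split into 4013 higher and 1481 lower, against 2614 and 2578 in the main analysis. A fit with the plate column as a term called 2873 genes, 1386 higher and 1487 lower. Of these 2497 were also called in the same direction without the term, and none in the opposite direction.

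**Figure D1:**
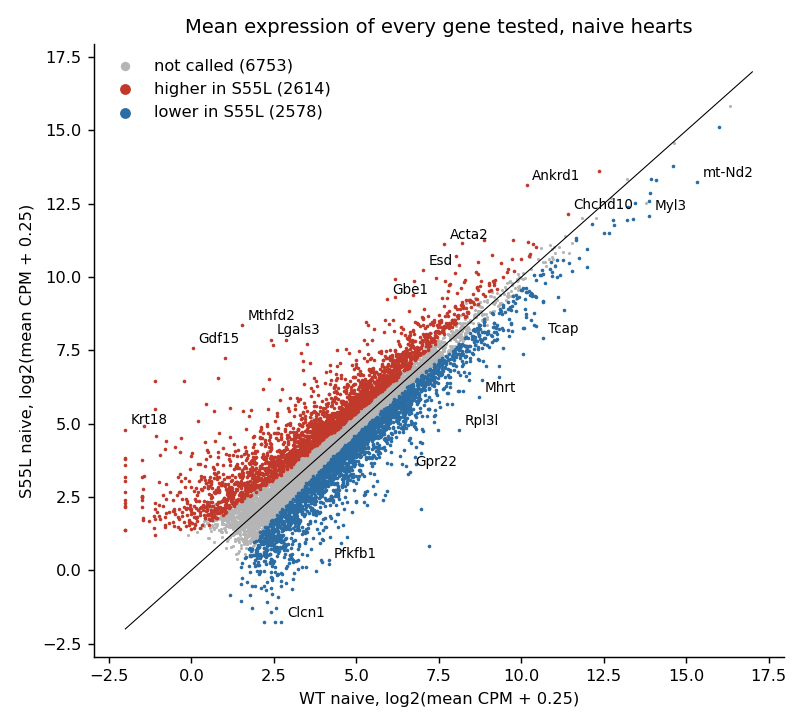
Mean expression of each of the 11945 genes tested, as log2 of mean CPM plus 0.25, in WT naive hearts (x axis) and S55L naive hearts (y axis). Red points (2614) were called higher and blue points (2578) lower in S55L, grey points were not called, and the line marks equal expression. The most abundant genes at the upper right lie mostly on or below the line.

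A gene that was not called was seldom shown to be level. The 95% interval of the log2 fold change lay within 0.5 either side of 0 for 1192 genes, none of them called, and reached past 1 for 1683 genes that were not called. Only Rbms1, which encodes a DNA- and RNA-binding protein, had its interval within 0.25. It read 191, 169.8, 176, 181 and 149 CPM in WT naive libraries 1 to 5 and 167, 173, 164, 169 and 192 CPM in S55L naive 1 to 5, so the ranges of the genotypes lay over each other.

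Some genes had no count at all in 1 genotype. There were 169 genes without a count in the 5 WT naive libraries and with counts in all 5 S55L naive libraries, and 5 genes of the reverse kind, but the S55L libraries were deeper. With every library thinned to 1418715 reads the numbers were 59 and 34. A count of 0 allows up to 3 counts, which over the WT naive group is 0.347 CPM and over the S55L naive group 0.131 CPM, for counting error only. By this floor Krt18, a keratin of simple epithelia, was at least 79.4-fold higher in S55L, with counts of 152, 187, 197, 51 and 66 in its 5 libraries. Ostn, which encodes the secreted muscle peptide osteocrin, was at least 40.1-fold higher (122, 74, 34, 50 and 42 counts) and Bmp10, a cardiac growth factor of the BMP family, at least 39.7-fold higher (93, 58, 79, 36 and 52 counts). Slc7a11, the cystine transporter, was at least 34.1-fold higher, Fgf21, a stress hormone, at least 17.5-fold, and Gsdma, a pore-forming gasdermin, at least 13.6-fold. The chemokine gene Cxcl13 was at least 11.2-fold higher, the cartilage collagen gene Col9a2 at least 7.36-fold, and the organic anion exporter gene Abcc2 at least 7.35-fold, though these 3 had too few counts to be tested. In the other direction Ankrd63 had 20 counts in WT and none in S55L and was at least 17.5-fold lower. In the fit with a plate column term, Krt18, Ostn, Bmp10 and Fgf21 were not called, though their log2 fold changes stayed positive. Their size in that fit is not given, because WT naive libraries held no counts.

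Promoter sequence was read for the genes with the largest changes, because several of the strongest rises belong to targets of ATF4, which binds with C/EBP proteins to the element TGATGNAA. RefSeq windows of 250 bases before the start (GRCm38.p6) were matched for 8883 of the 11945 genes tested, among them 255 of the 358 genes higher and 119 of the 210 genes lower by at least 4-fold. The element, on either strand, lay in 5.49% (14 of 255) of the windows of the genes that were higher, in 0.840% (1 of 119) of those that were lower, in 2.13% of all genes tested and in 3.53% of all 27025 RefSeq windows. The following windows were picked from the largest rises because they hold the element, so they do not show how common it is. Most windows of the genes that were higher lack it, and not every match is printed. The element is in capitals, 5′ to 3′ on the gene's own strand. The genes are Slc7a11, Asns (asparagine synthetase), the neuronal tubulin gene Tubb3, Pycr1 (proline synthesis) and Chac1 (glutathione breakdown).
Slc7a11: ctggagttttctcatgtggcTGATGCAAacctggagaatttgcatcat
Asns: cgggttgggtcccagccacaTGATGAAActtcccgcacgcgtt
Tubb3: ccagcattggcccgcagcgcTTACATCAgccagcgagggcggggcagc
Pycr1: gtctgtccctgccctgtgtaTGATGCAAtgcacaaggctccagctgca
Chac1: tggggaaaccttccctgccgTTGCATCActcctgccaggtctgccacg
These stretches lie at chr3:50443652-50443699 (minus strand), chr6:7693210-7693252 (minus), chr8:123411471-123411518 (plus), chr11:120643824-120643871 (minus) and chr2:119351029-119351076 (plus), with the element 66, 23, 62, 103 and 193 bases before the start, and that of Slc7a11 is 1 of 2 in its window. In Tubb3 and Chac1 the letters are on the opposite strand. The antioxidant element TGACNNNGC lay in 13.3% of the windows of genes at least 4-fold higher and in 12.1% of those of all genes tested, and the E-box CACGTG in 6.67% and 8.83%. A pattern looser than the MEF2 element, with any base at its 4 middle positions, was counted in place of the element itself. It lay in 6.72% (8 of 119) of the windows of genes at least 4-fold lower. The shares were 2.35% of those higher and 2.84% of all genes tested. A match to this pattern need not be a MEF2 element, and the share with the element itself was not counted. The match in Smco1, a membrane protein gene of the falls below, has C and G among its 4 middle bases. It is shown as a match to the looser pattern only (chr16:32271248-32271297, plus strand, 212 bases before the start).
Smco1: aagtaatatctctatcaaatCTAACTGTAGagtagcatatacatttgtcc
Each motif was counted on its own, and a match describes the letters of a window, not a bound site.

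The 20 genes with the largest rise among those with at least 5 CPM were, beside Krt18, Ostn, Bmp10, Slc7a11 and known stress-response genes such as Gdf15 and Mthfd2, genes of detoxification, lysosome, nerve and secretion. In all 20, as in the 20 largest falls, the lowest S55L library and the highest WT library (or the reverse) left a gap. Of all genes tested, 32.2% had no overlap between the 5 libraries of each genotype. The named genes were picked by their change in the same libraries, so a gap largely follows from the choice and adds no support. Lgals3, which encodes galectin-3, a carbohydrate-binding protein of macrophages and injured tissue, read 5.15, 2.45, 8.77, 3.44 and 5.44 CPM in WT naive 1 to 5 and 275, 321, 250, 117 and 196 CPM in S55L naive 1 to 5 (log2 change 5.47, standard error 0.33, adjusted p = 4.2e-11). Uchl1, a deubiquitinase of neurons, went from 5.34 ± 3.56 to 207 ± 53.5 CPM (log2 change 5.33, standard error 0.31, adjusted p = 6.4e-12). Inhba, the activin A subunit, read 1.03, 0, 2.92, 1.15 and 0.495 CPM in WT and 62.8, 69.2, 40.4, 41.5 and 42.1 CPM in S55L libraries (log2 change 5.42, standard error 0.40, adjusted p = 1.1e-10). Gpnmb, a glycoprotein of lysosomes and phagocytes, was at 2 counts over the WT naive group and 103-fold (counting interval at 95%: 28.3 to 851) higher. The neuronal Tubb3 had values of 0, 1.63, 1.17, 0 and 0 CPM in WT and 22.5, 26.6, 39.5, 11.4 and 14.2 CPM in S55L libraries. Its S55L values themselves spread over more than 3-fold. Acox2, a peroxisomal oxidase of branched-chain fatty acids and bile acid intermediates, reached 18.0 ± 3.73 CPM from 4 counts in WT (log2 change 5.16, standard error 0.53, adjusted p = 1.9e-08). Cyb5r2, a cytochrome b5 reductase, was 49.8-fold (counting interval at 95%: 16.9 to 242) higher, and the cationic amino acid transporter Slc7a3 61.2-fold (counting interval at 95%: 20.8 to 298). The glutathione transferase genes Gsta1, at 198-fold (counting interval at 95%: 54.6 to 1634) higher, and Gsta2, at a log2 fold change of 6.91, are near-identical copies, as are the vomeronasal receptor genes to which Vmn2r3 belongs, so their shares are uncertain. With the plate column as a term, Tubb3 (5.09), Acox2 (7.48), Cyb5r2, Slc7a3 and Gsta2 (10.06) were not called. Cyb5r2 and Slc7a3 kept a positive sign there too.

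The 20 largest falls included genes of muscle, of lipid handling and of other kinds. Rpl3l, the heart and skeletal muscle paralog of a ribosomal protein, read 203, 256, 309, 272 and 345 CPM in WT naive 1 to 5 and 17.5, 16.97, 20.1, 42.6 and 38.2 CPM in S55L naive 1 to 5 (log2 change -3.37, standard error 0.30, adjusted p = 3.3e-08), while its common form Rpl3 rose from 128 ± 23.8 to 397 ± 30.3 CPM (1.64, SE 0.17). Sequence shared by the pair could move reads between them. Pfkfb1, a regulator of glycolysis, read 19.1, 18.8, 16.96, 23.5 and 9.90 CPM in WT and 1.25, 0.715, 0.669, 0.853 and 1.09 CPM in S55L libraries. Myot, the Z-disc protein myotilin, fell from 10.98 ± 1.27 to 0.833 ± 0.786 CPM (log2 change -3.66, standard error 0.42, adjusted p = 8.2e-08), and Smco1 from 9.95 ± 1.67 to 0.835 ± 0.567 CPM (log2 change -3.51, standard error 0.40, adjusted p = 7.0e-08). Rtn2, a muscle reticulon, went from 58.6 ± 21.2 to 5.61 ± 1.60 CPM (-3.40, SE 0.44), and Sbk2, a kinase gene, from 17.6 ± 8.91 to 1.04 ± 0.545 CPM (-4.05, SE 0.49). Enzymes of lipid handling among the 20 were Pla2g5, a secreted phospholipase (-3.74, SE 0.34), Ces1d, a carboxylesterase that hydrolyses triglyceride (-3.33, SE 0.27), and Fitm1, which directs fat into droplets in muscle (-3.21, SE 0.20). Gcat of threonine breakdown (-3.20, SE 0.34), the cytochrome oxidase subunit gene Cox6b2 (-3.16, SE 0.40), the ephrin gene Efnb3 (-3.48, SE 0.24), the GDNF-family receptor gene Gfra4 (-3.03, SE 0.33) and Cenpf, a kinetochore protein (-3.25, SE 0.28), were of the same size. The transcript annotated as Mir133a-2 fell by 3.04, but these libraries read polyadenylated RNA and not mature microRNA. Less abundant than these, and named as a member of the channel list, the muscle chloride channel gene Clcn1 had 54 counts in WT naive and 1 in S55L naive, 144-fold (counting interval at 95%: 24.7 to 5777) lower. Not called in the fit with the plate column was Sbk2 (-2.39).

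**Figure D2:**
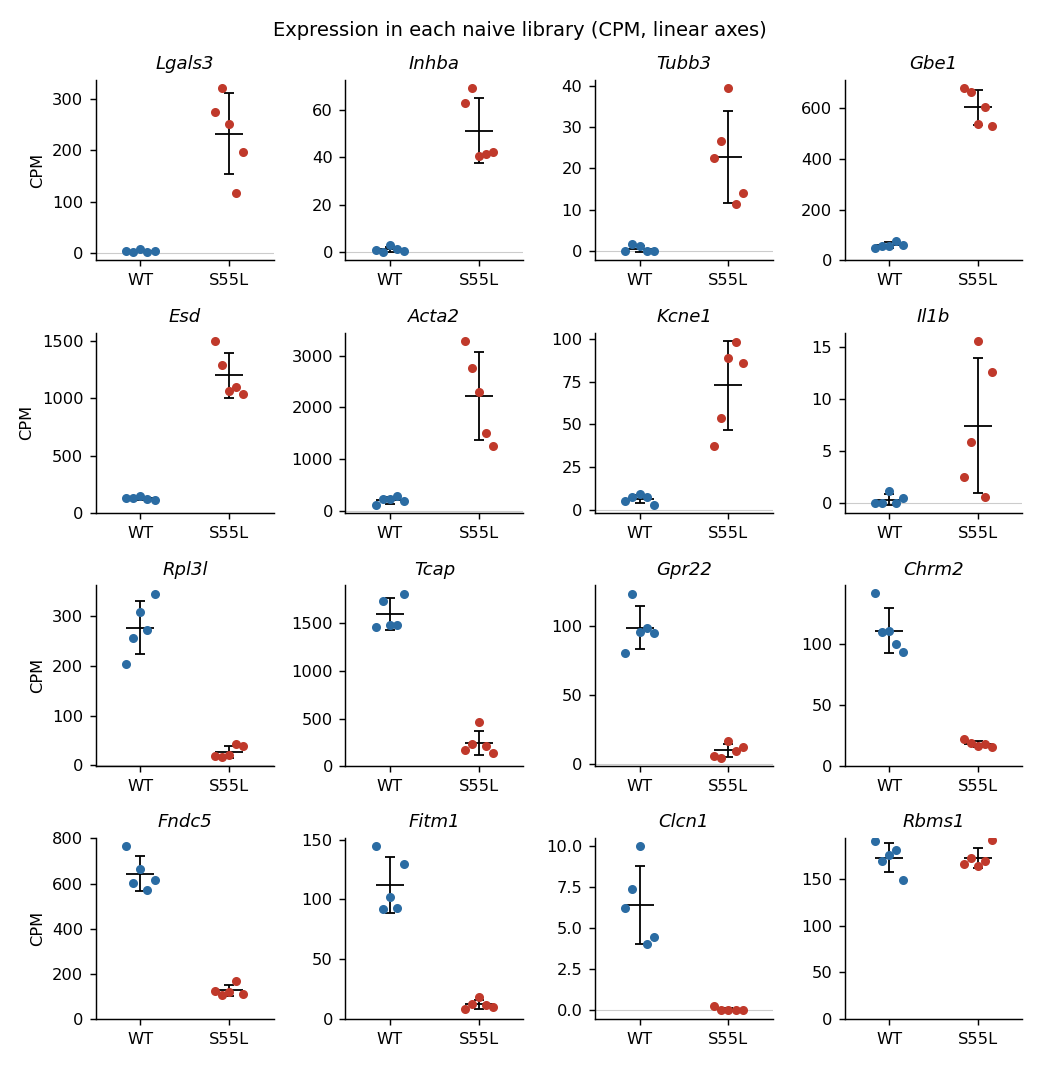
CPM of 16 genes in each of the 5 WT naive (blue) and 5 S55L naive (red) libraries, on linear axes that start at or just below 0, with the mean and SD in black. Lgals3, Inhba, Tubb3, Gbe1, Esd, Acta2, Kcne1 and Il1b sit higher in S55L and Rpl3l, Tcap, Gpr22, Chrm2, Fndc5, Fitm1 and Clcn1 lower, with an overlap of the genotypes only for Il1b among these, while the values of Rbms1 lie over each other.

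By amount of RNA, the largest gains were in structural, chaperone and detoxifying genes. Ankrd1, a stretch-responsive protein that binds titin, went from 1148 ± 143 to 8939 ± 1322 CPM, Cryab, the small heat shock protein of the Z-disc, from 5273 ± 1572 to 12441 ± 1845 CPM, and Acta2, smooth muscle alpha-actin, from 203 ± 65.2 to 2223 ± 847 CPM. Esd, the S-formylglutathione hydrolase of formaldehyde detoxification, read 131, 129, 153, 124 and 115 CPM in WT and 1502, 1291, 1065, 1099.6 and 1035 CPM in S55L libraries (log2 change 3.20, standard error 0.17, adjusted p = 6.3e-14). No WT library was near the S55L range. The glutathione transferase Gstm1 (2.42, SE 0.18; one of a family of near copies), the lysosomal protease Ctsd (1.53, SE 0.14), the autophagy receptor Sqstm1 (2.72, SE 0.17), the metallothionein Mt1 (1.63, SE 0.30) and the ribosomal stalk gene Rplp1 (1.01, SE 0.16; reads can be shared with pseudogenes) were among the 12 largest gains. Among the 12 largest losses were the mitochondrially encoded mt-Nd2 (41313 ± 6019 to 9645 ± 1990.3 CPM) and mt-Nd4 (64699 ± 6611 to 35658 ± 3084 CPM), the myosin light chains Myl3 (15003 ± 3191 to 4349 ± 924 CPM) and Myl2 (15065 ± 670.2 to 6147 ± 847 CPM), the giant spring protein Ttn (10784 ± 1886 to 4024 ± 425 CPM), lipoprotein lipase, Lpl (9487 ± 699.6 to 3936 ± 943 CPM), and the ADP/ATP carrier Slc25a4 (11174 ± 667 to 5905 ± 916 CPM). mt-Nd4 (-0.36) was not called with the plate column as a term.

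**Figure D3:**
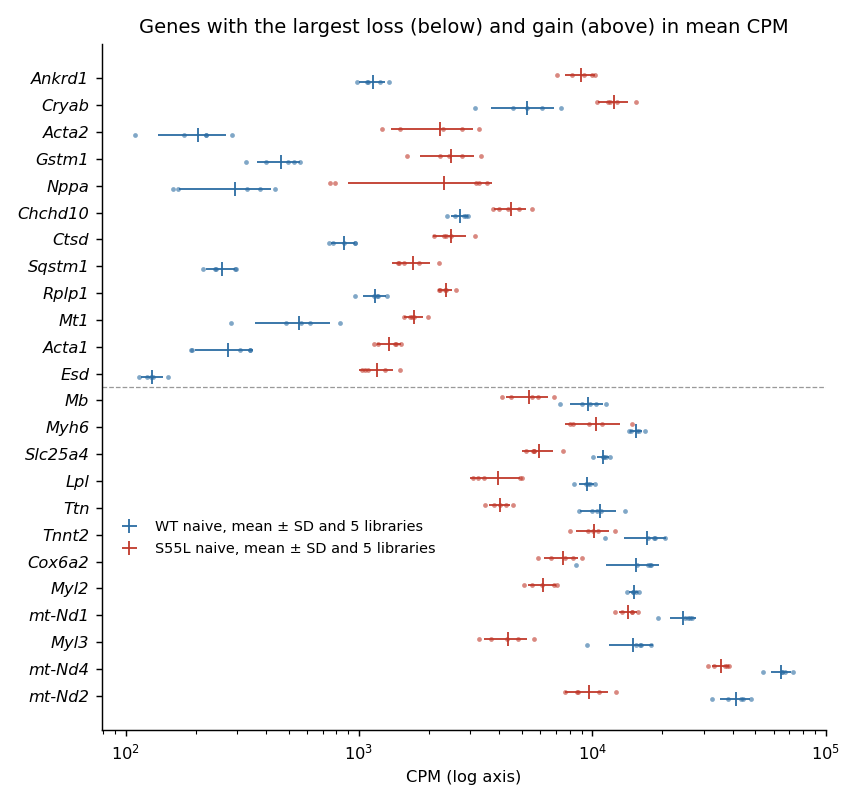
CPM, on a log axis, of the 12 genes with the largest gain and the 12 with the largest loss in mean CPM in S55L naive hearts. Small points are the 5 libraries of each genotype, and ticks with bars are mean and SD. Acta2 and Esd are among the rises with wholly separate libraries, and Nppa has the widest bar in S55L.

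Ion channel genes were mostly lower. Of 22 potassium channel genes measured, 14 fell and 2 rose (background 21.6% lower and 21.9% higher), with a median log2 fold change of -0.78 against -0.0039 over all genes tested. Kcne1, the accessory subunit of the slow delayed rectifier that is abundant in neonatal mouse hearts, was the strongest exception. It read 5.15, 7.35, 9.36, 7.46 and 2.97 CPM in WT naive 1 to 5 and 37.3, 53.6, 89.0, 98.1 and 86.1 CPM in S55L naive 1 to 5 (log2 change 3.52, standard error 0.34, adjusted p = 5.1e-08). All S55L libraries were above all WT libraries. Kcnj3, the acetylcholine-gated inward rectifier, fell from 45.1 ± 7.73 to 7.02 ± 1.79 CPM (log2 change -2.69, standard error 0.19, adjusted p = 1.7e-11), and the silent subunit Kcnv2 from 5.07 ± 1.40 to 0.960 ± 0.959 CPM (-2.46, SE 0.51). Kcnj12 and Kcnj2 of the resting inward rectifier were at -1.44 and -1.25, and Kcnd2 of the transient outward current at -1.42. The 35 other channels, exchangers and pumps had 4 members higher and 21 lower, with a median of -0.73. Among them the pacemaker channel Hcn4 fell from 10.7 ± 2.42 to 1.69 ± 0.491 CPM (log2 change -2.66, standard error 0.34, adjusted p = 4.4e-07), the sodium channel subunit Scn4b from 30.2 ± 5.13 to 6.38 ± 2.37 CPM (-2.27, SE 0.23), the glycerol channel Aqp7 from 9.37 ± 2.998 to 1.51 ± 0.402 CPM (-2.61, SE 0.35), and the T-type calcium channels Cacna1g and Cacna1h by 1.71 and 1.93. Aqp8 was at 1.99. The plate column term left potassium channel counts of 1 higher and 7 lower, and 2 and 17 in the second group. In the fit with a plate column term, Kcnj12 (-0.72), Kcnd2 (-1.64) and Aqp8 (0.18) were not called.

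Receptors of hormones and transmitters, and the enzymes that pass on their signals, differed in both directions. Of 44 G protein-coupled receptors and regulators, 10 rose and 20 fell, a balance that turned with the plate column as a term (7 and 4) and with total counts (12 and 10). The orphan receptor Gpr22, which is strongly expressed in heart, read 80.4, 123, 95.9, 98.7 and 95 CPM in WT naive 1 to 5 and 6.05, 4.65, 16.9, 9.95 and 12.4 CPM in S55L naive 1 to 5 (log2 change -3.31, standard error 0.27, adjusted p = 2.8e-09). Chrm2, the muscarinic receptor of vagal signalling, read 142, 109, 111, 99.8 and 93.0 CPM in WT and 21.9, 18.9, 16.3, 18.2 and 15.7 CPM in S55L libraries (log2 change -2.60, standard error 0.17, adjusted p = 2.9e-12). The channel it opens, Kcnj3 with Kcnj5 (-1.01), was lower as given above. The alpha-1 adrenergic receptors Adra1a and Adra1b were at -1.69 and -1.71, and the beta-1 receptor Adrb1 at -0.83. The receptor kinase Grk5 rose by 1.52, Arrb2, an arrestin that ends receptor signalling, by 1.94, and the UDP receptor P2ry6 by 1.90. The microglial and macrophage ADP receptor P2ry12 was at 1.97. Of 25 cyclic nucleotide enzymes and kinases 3 rose and 10 fell (4 and 6 with total counts). The adenylyl cyclase Adcy9 fell from 16.2 ± 2.42 to 3.23 ± 1.34 CPM (log2 change -2.31, standard error 0.30, adjusted p = 6.9e-07), the cardiac cyclase Adcy6 by 1.12, and the phosphodiesterase Pde3a from 56.4 ± 9.40 to 22.0 ± 0.9751 CPM (-1.36, SE 0.15). The regulatory subunit of protein kinase A, Prkar1a, rose from 416 ± 76.5 to 1462 ± 170.5 CPM (log2 change 1.81, standard error 0.16, adjusted p = 1.5e-09). The catalytic subunit Prkaca was at -1.10, and Adcy7, the cyclase of blood cells, was at 1.63. With the plate column as a term, Kcnj5 (-0.87), Adra1b (-0.89), Adrb1 (-0.70) and P2ry12 (2.02) were not called.

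Z-disc and titin-associated genes were lower, with exceptions among stress-responsive members. Of 47 measured, 27 fell and 5 rose (median -0.52). The counts were 14 and 5 with the plate column as a term, and 19 and 9 with total counts. Tcap, the titin cap, read 1459, 1738, 1488, 1489 and 1814 CPM in WT naive 1 to 5 and 173, 231, 466, 206 and 133 CPM in S55L naive 1 to 5 (log2 change -2.72, standard error 0.30, adjusted p = 5.8e-07). Ky, a muscle protease-like protein of the Z-disc, fell from 21.4 ± 4.06 to 3.54 ± 1.17 CPM (-2.62, SE 0.27), the myosin light chain kinase Mylk4 was at -2.09, and the titin-linked kinase Alpk3 at -1.55. Among the 5 that rose were Ankrd1, Cryab, Pdlim1 (1.18) and Fhl1 (0.96). Of 42 genes of the dystrophin complex, integrins and costamere, 7 rose and 16 fell (4 and 8 with the plate column as a term, 11 and 11 with total counts). Among them the integrin beta-1 subunit Itgb1 rose from 415 ± 125 to 1105 ± 167 CPM (log2 change 1.41, standard error 0.30, adjusted p = 9.4e-04) while its muscle binding protein Itgb1bp2 was at -1.30. Alpha-sarcoglycan, Sgca, was at -1.33 and epsilon-sarcoglycan, Sgce, at 0.97. At the intercalated disc, where 25 genes were measured, 3 rose and 8 fell (4 and 5 with total counts). The desmosomal cadherins Dsg2 and Dsc2 were at -1.004 and -1.11, the scaffold Tjp1 at -0.98. Beta-catenin, Ctnnb1, rose from 254 ± 28.4 to 509 ± 31.7 CPM (log2 change 1.002, standard error 0.15, adjusted p = 4.0e-06). Plectin, Plec, which ties intermediate filaments to the Z-disc, was at -1.47.

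Microtubule and nonmuscle actin genes ran the other way. Of 37 tubulin and microtubule genes 21 rose and 7 fell (median 0.51; 13 and 3 with the plate column as a term). Map1b, a microtubule-binding protein of growing axons, rose from 21.2 ± 5.01 to 182 ± 49.8 CPM (log2 change 3.07, standard error 0.22, adjusted p = 2.2e-11), its relative Map1a from 4.91 ± 2.53 to 91.9 ± 30.3 CPM (log2 change 4.23, standard error 0.29, adjusted p = 1.9e-11), and the tubulins Tubb2b and Tubb2a by 2.59 and 1.95. Tubulin isotypes are close in sequence, so reads could be split between them. The falls included Tppp, which bundles microtubules (-2.24), the alpha-tubulins Tuba8 (-1.49) and Tuba4a (-0.98), and Map1lc3a, whose product takes part in autophagy (-1.87). Of 58 actin regulators and nonmuscle contractile genes 28 rose and 5 fell (median 0.42; 21 and 2 with the plate column as a term). Acta2 read 109.7, 220.4, 222, 287 and 178 CPM in WT naive 1 to 5 and 3287, 2763, 2298, 1507 and 1259 CPM in S55L naive 1 to 5 (log2 change 3.45, standard error 0.46, adjusted p = 2.1e-05). Other smooth muscle markers did not go with it: of the 12 measured in that list 9 fell and Acta2 alone rose (4 fell and 1 rose with the plate column as a term, 5 and 2 with total counts), with Vtn at -1.73 and the pericyte genes Rgs5 and Kcnj8 at -0.87 and -0.90. Lcp1, the plastin of blood cells, rose from 13.3 ± 3.50 to 86.6 ± 10.7 CPM (log2 change 2.697, standard error 0.21, adjusted p = 8.6e-11), Myl9, a regulatory light chain, from 42.7 ± 17.1 to 149 ± 46.5 CPM (1.81, SE 0.24), and the actin elongation factor Enah from 213 ± 12.5 to 628 ± 91.1 CPM (1.56, SE 0.17). Not called in the fit with the plate column were Tuba8 (-0.88) and Tuba4a (0.19).

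Transcription factors of heart muscle were lower more often than higher. Of 41 measured, 16 fell and 3 rose (median -0.30), and 8 and 2 with the plate column as a term. With total counts 12 fell and 7 rose (median -0.06). Hopx, a homeodomain protein of the heart, read 203, 159, 161, 155 and 142 CPM in WT naive 1 to 5 and 27.3, 29.7, 29.4, 41.2 and 39.3 CPM in S55L naive 1 to 5 (log2 change -2.30, standard error 0.18, adjusted p = 5.8e-11). Gata6 fell from 101 ± 19.9 to 40.8 ± 2.65 CPM (-1.31, SE 0.15), Tbx5 from 56.4 ± 5.95 to 24.5 ± 5.44 CPM (-1.20, SE 0.17), and Mef2c from 97.3 ± 22.3 to 61.9 ± 6.96 CPM (-0.65, SE 0.15). Nuclear receptors and their coregulators had 20 of 43 members lower and 2 higher (median -0.48). Only 9 were lower and 1 higher with the plate column as a term, and 11 and 5 with total counts. Ppara, the receptor that drives genes of fatty acid oxidation, fell from 33.8 ± 10.4 to 8.99 ± 2.998 CPM (log2 change -1.92, standard error 0.31, adjusted p = 4.5e-05), and the mineralocorticoid receptor Nr3c2 from 13.9 ± 7.62 to 6.02 ± 0.384 CPM (-1.19, SE 0.31). The retinoid receptor Rxra was at -0.76. Among other regulators 19 of 64 rose and 15 fell, but 8 and 12 with the plate column as a term. Spi1, which encodes the myeloid factor PU.1, rose from 1.45 ± 0.895 to 9.45 ± 4.37 CPM (log2 change 2.73, standard error 0.41, adjusted p = 6.5e-06), Hif1a, the oxygen-regulated factor, from 34.6 ± 6.81 to 111 ± 11.53 CPM (log2 change 1.69, standard error 0.14, adjusted p = 2.6e-10), and Sox9 by 1.68. The clock output factors Dbp and Hlf fell by 2.67 and 2.60, and the hour of killing is not given in the labels. Nr3c2 (-0.91) was not called with the plate column as a term.

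Among RNA-binding regulators of splicing 5 of 35 were higher and 7 lower, which turned to 11 and 2 with total counts. Rbfox1, a splicing factor of muscle and neurons, fell from 66.3 ± 7.65 to 12.1 ± 1.79 CPM (log2 change -2.45, standard error 0.20, adjusted p = 2.7e-10), and Rbm20, which sets titin splicing, from 95.8 ± 11.3 to 49.2 ± 2.80 CPM (-0.96, SE 0.14). Noncoding transcripts went both ways, with 7 of 26 higher and 6 lower (4 and 5 with the plate column as a term). Mhrt, a transcript antisense to the Myh7 gene, fell from 419 ± 74.1 to 59.7 ± 11.9 CPM (log2 change -2.81, standard error 0.22, adjusted p = 2.7e-10), and Carmn, a host transcript of microRNAs of smooth and heart muscle, from 3.83 ± 1.87 to 0.888 ± 0.591 CPM (-2.08, SE 0.49). Since the strand setting of the counting is not given in the sources used here, the reads of Mhrt and of the myosin genes around it cannot be told apart with certainty. Dnm3os, a host transcript linked to fibroblasts, rose from 3.40 ± 1.27 to 10.4 ± 2.54 CPM (1.64, SE 0.33), and Gas5, which accumulates when translation slows, from 55.4 ± 9.26 to 142 ± 13.2 CPM (1.35, SE 0.15). Of 30 immediate early genes 10 rose and 4 fell. Myc was at 3 counts over the WT naive group and 13.2-fold (counting interval at 95%: 4.38 to 64.8) higher, Egr2 17.9-fold (counting interval at 95%: 4.81 to 149.6) and Dusp4, a MAP kinase phosphatase, 58.3-fold (counting interval at 95%: 10.3 to 2316). In that list 2 were higher and 4 lower with the plate column as a term. In the fit with a plate column term, Myc, Egr2 and Dusp4 were not called but kept a positive sign.

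Genes of BMP, activin and TGF-beta signalling included some of the strongest rises. These secreted factors signal through paired receptors to SMAD proteins and are known in heart for their part in growth and fibrosis. Of 34 measured, 16 rose and 5 fell (median 0.19; 7 and 2 with the plate column as a term). Among ligands, Tgfb2 rose from 12.5 ± 3.69 to 68.9 ± 16.9 CPM (log2 change 2.45, standard error 0.29, adjusted p = 8.1e-07), beside Inhba and Bmp10 above, while Inha, the inhibin subunit, was at -1.85. Of the receptors, Acvr2b, which binds activins and myostatin, fell from 10.2 ± 3.34 to 2.25 ± 1.504 CPM (log2 change -2.18, standard error 0.44, adjusted p = 2.9e-04), and Tgfbr2 was at 0.60. Ltbp2, a matrix protein related to TGF-beta binding proteins, had 1 count in WT and was 76.3-fold (counting interval at 95%: 13.5 to 3029) higher. The secreted inhibitor Fstl3 (1.14) and the inhibitory SMAD gene Smad6 (1.30) rose too. With the plate column as a term, Inha (-1.76), Tgfbr2 (0.93) and Ltbp2, which kept a positive sign, were not called.

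Secreted antagonists of Wnt were the strongest rises among Wnt genes. Of 17 genes of Wnt signalling, 7 rose and 6 fell (4 and 2 with the plate column as a term). Sfrp2 read 2.58, 1.63, 0.585, 1.72 and 0.495 CPM in WT naive 1 to 5 and 16.7, 22.9, 21.9, 19.6 and 22.9 CPM in S55L naive 1 to 5 (log2 change 3.87, standard error 0.35, adjusted p = 1.1e-09), Frzb rose from 9.61 ± 3.36 to 57.6 ± 14.2 CPM (log2 change 2.62, standard error 0.33, adjusted p = 2.8e-06), Sfrp1 from 14.1 ± 4.28 to 62.2 ± 6.92 CPM (2.14, SE 0.25), and the related Dkk3 from 1.69 ± 0.665 to 17.9 ± 2.58 CPM (log2 change 3.43, standard error 0.34, adjusted p = 8.8e-09). Wif1 was at 1.78. The ligand Wnt5a was at -1.23. Among 50 growth factors and receptors 11 were higher and 14 lower, shares near the background, with 8 and 8 under the plate column term and 14 and 6 with total counts. The matricellular genes Ccn2 and Ccn4 rose from 22.8 ± 4.19 to 93.6 ± 35.8 CPM (2.04, SE 0.25) and from 3.50 ± 2.63 to 23.8 ± 6.41 CPM (2.76, SE 0.35). The vessel-stabilising ligand Angpt1 fell from 26.2 ± 7.53 to 4.79 ± 1.67 CPM (log2 change -2.47, standard error 0.25, adjusted p = 1.2e-08). Igf1 was at 1.71 and Vegfa at -0.85. Among muscle peptides Fndc5, the precursor of irisin, read 768, 603, 666, 570.2 and 614 CPM in WT and 126, 106, 120.4, 169 and 110.3 CPM in S55L libraries (log2 change -2.35, standard error 0.21, adjusted p = 2.6e-09). The vasodilator adrenomedullin, Adm, rose from 3.35 ± 1.26 to 15.8 ± 3.89 CPM (log2 change 2.19, standard error 0.34, adjusted p = 1.1e-05). Not called in the fit with the plate column were Wif1 (-0.32) and Wnt5a (-0.57).

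Glycogen genes changed in both directions with large steps. Glycogen is built on the primer glycogenin, branched by Gbe1 and broken down by phosphorylase, and of 22 genes 7 rose and 6 fell (6 and 3 with the plate column as a term, 8 and 3 with total counts). Gbe1 read 50.5, 58.0, 56.2, 77.4 and 60.4 CPM in WT naive 1 to 5 and 681, 663, 539.6, 606 and 529 CPM in S55L naive 1 to 5 (log2 change 3.32, standard error 0.17, adjusted p = 3.6e-14). Glycogenin, Gyg, rose from 82.0 ± 13.8 to 317 ± 32.0 CPM (log2 change 1.96, standard error 0.18, adjusted p = 1.1e-09), and Stbd1, which anchors glycogen to membranes, from 4.92 ± 3.63 to 19.9 ± 4.95 CPM (log2 change 2.08, standard error 0.36, adjusted p = 5.5e-05). Subunits of phosphorylase kinase diverged, with Phka1 at 1.95 and the catalytic Phkg1 at -2.94. The muscle synthase Gys1 and phosphorylase Pygm were both at -0.45. Of 23 genes of the pentose phosphate pathway and other NADPH sources 11 rose and 2 fell (median 0.59; 4 and 1 with the plate column as a term). Taldo1, the transaldolase of that pathway, rose from 104 ± 9.45 to 677 ± 123 CPM (log2 change 2.704, standard error 0.17, adjusted p = 1.5e-12), and Nqo1, a quinone reductase, from 27.4 ± 4.92 to 168 ± 27.3 CPM (log2 change 2.63, standard error 0.18, adjusted p = 5.8e-12). G6pdx, the entry enzyme, was at 1.52. The mitochondrial malic enzyme Me3 fell from 34.6 ± 6.12 to 11.8 ± 2.48 CPM (-1.56, SE 0.20). Mthfd1l of mitochondrial folate metabolism was at 4.32. G6pdx (1.09) and Mthfd1l (1.51) were not called with the plate column as a term.

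Genes of fat storage and use were lower more often than higher. Of 36 genes of lipid droplets, lipases and lipoproteins 8 rose and 15 fell, and with the plate column as a term 7 and 9. With total counts 10 rose and 12 fell, so the balance depends on the scaling. Fitm1 read 144, 92.3, 102, 92.9 and 129.6 CPM in WT naive 1 to 5 and 8.34, 12.9, 18.1, 11.7 and 9.59 CPM in S55L naive 1 to 5, its relative Fitm2 was at -1.71, and hormone-sensitive lipase, Lipe, fell from 66.5 ± 23.6 to 22.7 ± 3.49 CPM (-1.55, SE 0.20). Cd36, the fatty acid carrier of muscle and endothelium, was at -0.92. The droplet coat genes were split, with Plin2 at 0.94 and Plin3 at -0.76. Apoe, the lipoprotein of macrophages, rose from 256 ± 77.0 to 1114 ± 315.6 CPM (log2 change 2.12, standard error 0.28, adjusted p = 5.3e-06), and the epoxide hydrolase Ephx1 from 20.9 ± 4.87 to 93.8 ± 22.3 CPM (2.17, SE 0.18). Among PPAR targets and regulators of pyruvate dehydrogenase 13 of 29 fell and 5 rose (12 and 8 with total counts). Pdp2, the phosphatase that activates pyruvate dehydrogenase, fell from 87.5 ± 12.9 to 16.8 ± 5.29 CPM (log2 change -2.39, standard error 0.24, adjusted p = 4.2e-08), its regulatory partner Pdpr from 20.1 ± 7.197 to 5.52 ± 1.41 CPM (-1.89, SE 0.30), and the kinases Pdk2 and Pdk3 were at -1.70 and 1.67. The glucose transporters were split too, with Slc2a1, the fetal and ubiquitous form, at 1.89 and Slc2a4, the insulin-sensitive form, at -1.22. Synthesis of lipids gave 14 higher and 14 lower of 50 genes (11 and 5 with the plate column as a term, 20 and 11 with total counts), with the ceramide enzyme gene Sptlc2 at 1.60 and the desaturase Fads2 at -1.36. In cholesterol synthesis 3 of 25 rose and 3 fell, below the background in each direction, with 1 and 3 under the plate column term and 6 and 2 with total counts. The muscle creatine kinase Ckm fell from 1261 ± 177 to 369 ± 81.4 CPM (log2 change -1.77, standard error 0.24, adjusted p = 3.2e-06).

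Genes that charge tRNAs were mostly higher. Of 23 cytosolic aminoacyl-tRNA synthetase genes 16 rose and 1 fell (median 1.16; 12 and 0 with the plate column as a term). Beside Gars, Cars rose from 12.16 ± 1.18 to 40.4 ± 7.11 CPM (log2 change 1.73, standard error 0.21, adjusted p = 2.6e-07) and Aars, for alanine, from 53.4 ± 14.8 to 172 ± 20.4 CPM (log2 change 1.69, standard error 0.20, adjusted p = 2.8e-07). The gene that fell was Qars, for glutamine, at -0.49, a value that was not called with total counts, without a filter on low counts or without WT naive 4. Of 47 nutrient transporters 17 rose and 9 fell, but 6 and 6 with the plate column as a term. Slc1a4, a carrier of serine and other neutral amino acids, rose from 0.961 ± 0.960 to 12.1 ± 2.86 CPM (log2 change 3.49, standard error 0.40, adjusted p = 1.0e-07), the glycine carrier Slc6a9 from 4.05 ± 2.07 to 29.6 ± 6.65 CPM (log2 change 2.93, standard error 0.28, adjusted p = 4.1e-09). The organic cation carrier Slc22a3 was at -2.698. Slc7a5 had 1 count in WT and was 47.7-fold (counting interval at 95%: 8.42 to 1901) higher. Ribosome biogenesis genes had 18 of 40 higher and 3 lower (median 0.37), with Nop2 and Nhp2 at 1.16 and 1.23, and the 81 ribosomal protein genes 24 higher and 3 lower (median 0.13), near the background for higher calls. The biogenesis counts were 9 and 3 with the plate column as a term. In the fit with a plate column term, Qars (-0.26) and Slc7a5, which kept a positive sign, were not called.

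Among the routes of protein breakdown, lysosomal genes rose most often. Of 47 lysosomal genes 30 rose and 3 fell (median 0.69; 25 and 2 with the plate column as a term). Atp6v1h, a subunit of the proton pump, rose from 8.65 ± 1.42 to 45.1 ± 4.88 CPM (log2 change 2.37, standard error 0.22, adjusted p = 3.0e-09), and Ctss, a protease of antigen-presenting cells, from 18.2 ± 3.20 to 129 ± 12.7 CPM (log2 change 2.81, standard error 0.17, adjusted p = 1.0e-12). Among the falls were Npc1 (-0.91) and Ctsf (-0.80). Of 43 proteasome genes 15 rose and 1 fell (median 0.23), led by the lid subunits Psmd8 (1.56, SE 0.17) and Psmd14 (1.02, SE 0.17), and Psme1 of an activator complex was at -0.66. Autophagy genes were near the background, with 8 higher and 12 lower of 44 (7 and 6 with the plate column as a term, 16 and 5 with total counts), among them Sqstm1, which rose from 259 ± 36.3 to 1704 ± 311.4 CPM (log2 change 2.72, standard error 0.17, adjusted p = 1.5e-12), and the mitophagy kinase Pink1, which fell from 521 ± 40.7 to 198 ± 51.9 CPM (log2 change -1.40, standard error 0.15, adjusted p = 3.5e-08). The ubiquitin ligase subunit gene Fbxo31 fell by 1.69 and Asb2 and Asb15 by 1.26 and 1.48. In their list, of muscle ubiquitin ligases and atrophy genes, 9 of 41 rose and 14 fell. The counts were 3 and 8 with the plate column as a term, and 10 and 11 with total counts. Metallothioneins Mt1 and Mt2 rose from 556 ± 198 to 1723 ± 156 CPM (log2 change 1.63, standard error 0.30, adjusted p = 2.4e-04) and from 63.0 ± 31.1 to 337 ± 86.5 CPM (log2 change 2.43, standard error 0.47, adjusted p = 6.5e-04). The list of metal genes was at 4 higher and 3 lower of 14. In iron and heme metabolism, 8 rose and 12 fell of 43, a balance that turned with the plate column as a term (5 and 2) and with total counts (12 and 6), with biliverdin reductase B, Blvrb, at 25.7 ± 1.82 to 185 ± 72.4 CPM (log2 change 2.85, standard error 0.23, adjusted p = 7.4e-10). With the plate column as a term, Ctsf (-0.77) was not called.

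Genes induced by p53 were higher more often than lower, with 13 of 31 up and 2 down. The cell cycle inhibitor Cdkn1a rose from 22.8 ± 11.2 to 100.2 ± 18.4 CPM (log2 change 2.18, standard error 0.38, adjusted p = 1.9e-04), and Eda2r, a receptor of the TNF receptor family, from 0.436 ± 0.482 to 4.98 ± 1.60 CPM (log2 change 3.32, standard error 0.57, adjusted p = 3.8e-05). Trp53 itself was at 0.43 and not called (adjusted p = 0.21). Bid, which links death receptors to mitochondria, rose from 0.547 ± 0.544 to 9.38 ± 2.62 CPM (log2 change 3.93, standard error 0.51, adjusted p = 6.0e-07), in a list of cell death genes of which 11 of 42 rose and 5 fell. The inflammatory cytokine Il1b had 3 counts in WT and was 21.9-fold (counting interval at 95%: 7.38 to 107) higher, but its S55L values spread widely, at 2.50, 5.90, 15.6, 0.569 and 12.6 CPM. Among 39 cytokines, chemokines and receptors 20 rose and 4 fell (median 0.71; 12 and 3 with the plate column as a term). Cx3cr1, the fractalkine receptor of monocytes and macrophages, rose from 3.24 ± 1.86 to 43.9 ± 15.6 CPM (log2 change 3.66, standard error 0.33, adjusted p = 4.5e-09), the chemokine Ccl12 from 0.808 ± 1.26 to 6.31 ± 3.79 CPM (log2 change 2.89, standard error 0.73, adjusted p = 0.0031). The muscle cytokine Il15 fell from 49.2 ± 4.26 to 7.96 ± 1.64 CPM (log2 change -2.64, standard error 0.18, adjusted p = 8.6e-12). Of 39 complement, acute phase and protease inhibitor genes 21 rose and 5 fell, with the matricellular Thbs4 at 7.72 ± 4.09 to 57.9 ± 11.1 CPM (2.94, SE 0.38). Of 17 antigen presentation genes 11 rose and none fell by edgeR or DESeq2, nor at an unadjusted p under 0.05, but with the plate column as a term 3 rose. Interferon-stimulated genes were nearer the background, with 12 higher and 4 lower of 41 (5 and 1 with the plate column as a term), and hypoxia response genes stood at 8 and 7 of 30 (7 and 2). Not called in the fit with the plate column was Il1b, which kept a positive sign.

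**Figure D4:**
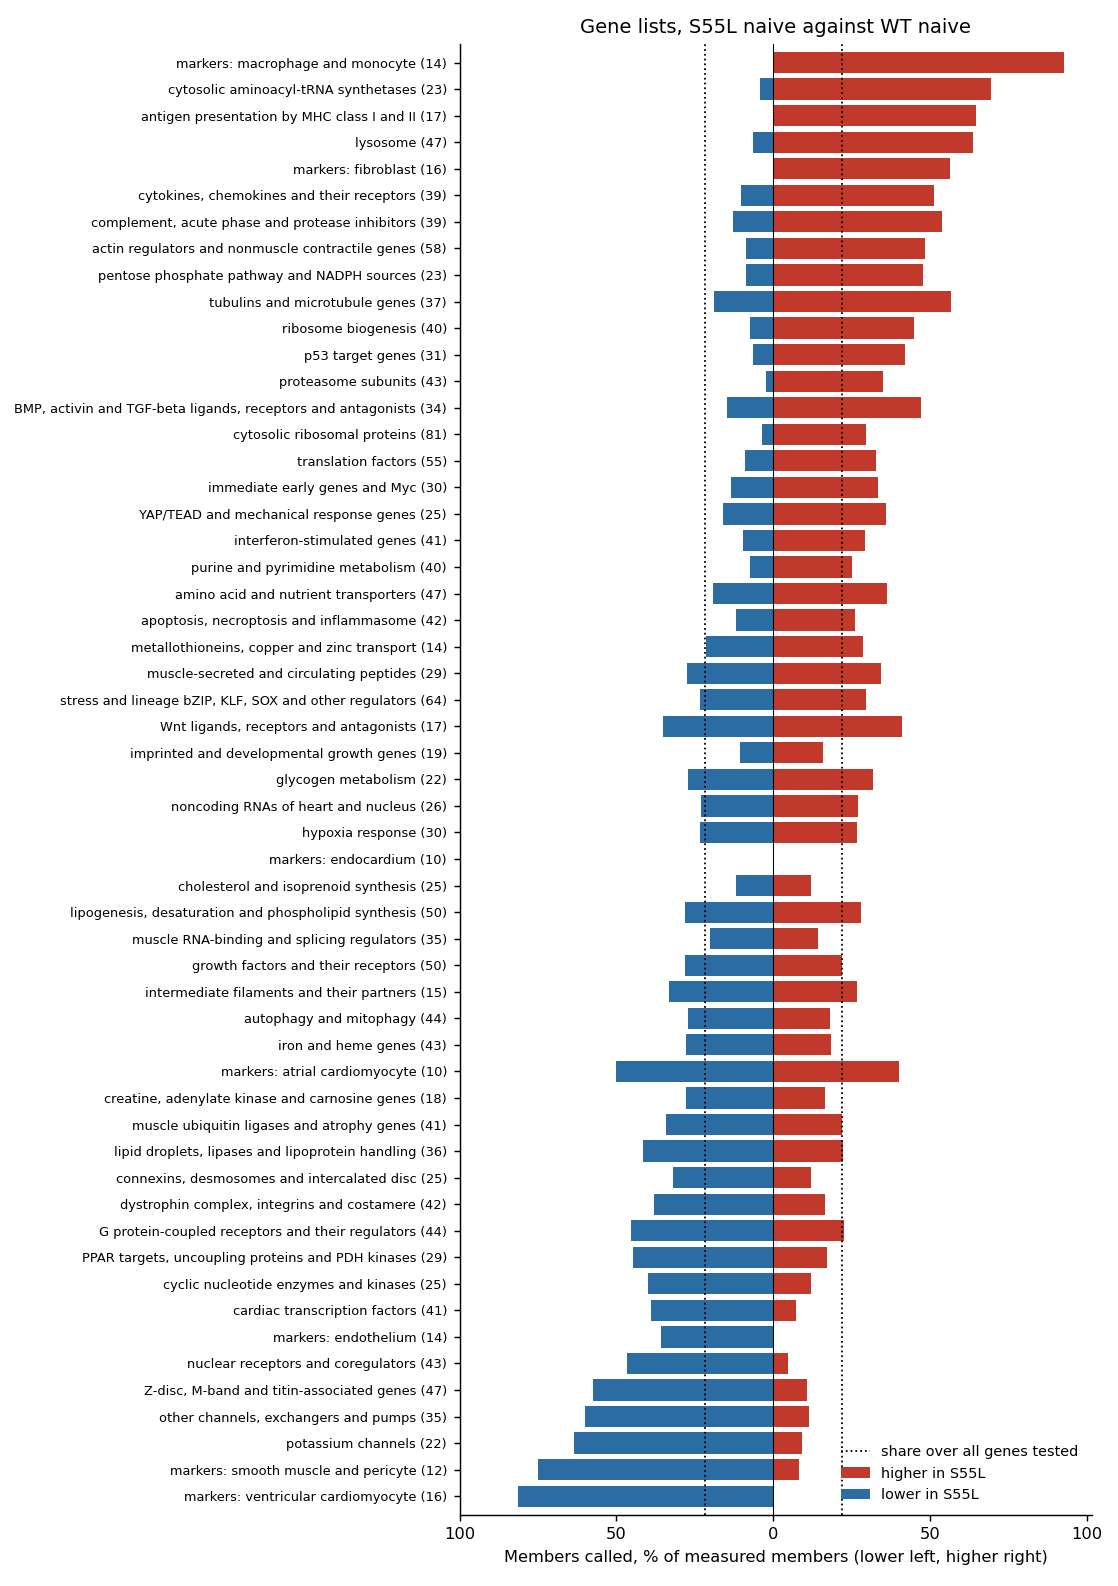
Share of the measured members of each gene list (number in parentheses) called higher (red, to the right) or lower (blue, to the left) in S55L naive hearts. Dotted lines mark the shares over all genes tested, 21.9% higher and 21.6% lower. Among the lists with at least 10 members, markers of macrophages, tRNA synthetases and antigen presentation genes reach furthest right, followed by lysosomal genes, and ventricular cardiomyocyte, smooth muscle and potassium channel genes furthest left.

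The markers of cell types differed as well, and in bulk tissue fewer cells of a type and less RNA per cell cannot be told apart. Macrophage markers rose in 13 of 14 measured, with a summed level of 350.3 to 446 CPM in the 5 WT naive and 1716 to 2061 CPM in the 5 S55L naive libraries. Lgals3, Gpnmb, Ctss, Lcp1, Spi1, Cx3cr1 and many members of the lysosome and cytokine lists were higher too. The part of macrophages in those results was not tested. Trem2, a lipid receptor of macrophages, rose from 1.51 ± 1.16 to 14.3 ± 5.12 CPM (log2 change 3.31, standard error 0.40, adjusted p = 2.3e-07), and Lyz2, myeloid lysozyme, from 172 ± 18.7 to 1013 ± 135 CPM (log2 change 2.56, standard error 0.17, adjusted p = 6.9e-12). Fibroblast markers had 9 of 16 higher and none lower by edgeR or DESeq2, nor at an unadjusted p under 0.05 (summed 2124 to 2831 and 3585 to 4366 CPM). The Wnt antagonists and matricellular genes above were higher too, and a link between them and these markers was not tested. Cilp, a matrix protein of activated cardiac fibroblasts, rose from 4.23 ± 1.31 to 72.0 ± 31.3 CPM (log2 change 4.10, standard error 0.40, adjusted p = 1.4e-07), Meox1 from 8.92 ± 2.31 to 58.3 ± 18.6 CPM (log2 change 2.72, standard error 0.35, adjusted p = 3.2e-06) and Postn, periostin, from 8.66 ± 3.06 to 49.4 ± 14.9 CPM (log2 change 2.51, standard error 0.33, adjusted p = 4.4e-06). The general fibroblast genes Dcn, Pdgfra and Dpt were at 0.21, 0.19 and 0.01 and not called. Ventricular cardiomyocyte markers fell in 13 of 16 (8 with the plate column as a term, where 1 rose), and of the defining genes Actc1 (0.14) and Mybpc3 (0.09) were not called. Atrial markers were split, 4 higher and 5 lower of 10 (1 and 4 with the plate column as a term, 4 and 4 with total counts). Bmp10 and Nppa are among them, the labels do not give the part of the heart taken, and the share of atrium was not tested. The summed level of these markers was 335 to 609 CPM in WT and 855 to 3648 CPM in S55L libraries. Endothelial markers had 5 of 14 lower and none higher in either test or at an unadjusted p under 0.05 (summed 2076 to 2376 and 1401 to 1707 CPM), with 2 lower under the plate column term, and none of 10 endocardial markers was called by edgeR or DESeq2 (none at an unadjusted p under 0.05), though 2 were higher with total counts. Of 6 erythroid markers 3 were lower (none lower and 1 higher with the plate column as a term), with summed levels of 2942 to 5807 CPM in WT and 1602 to 3136 CPM in S55L libraries, and the globin genes among them turned to a positive sign with the plate column as a term.

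Chchd10 itself (ENSMUSG00000049422) read 2393, 2868, 2934, 2823 and 2574 CPM in WT naive 1 to 5 and 4863, 3997, 5544, 4340.1 and 3761 CPM in S55L naive 1 to 5, every S55L library above every WT library (log2 change 0.73, standard error 0.19, adjusted p = 0.0028). A count near the 3' end does not read the mutated codon and so does not check the genotype. The 10 tested genes on each side of it along chromosome 10 (RefSeq order) were read as well. Of these 20, 2 were higher and 6 lower, 40.0% called against 43.5% of all genes tested. Mif, a cytokine, was at 1.46 and Pofut2 at 0.91, and the glutathione transferase genes Gstt1 and Gstt2 at -1.45 and -1.24. Xist had 291 to 1188 counts in each of the 10 libraries and the Y-linked genes Uty, Kdm5d and Eif2s3y had none, which allows up to 0.347 CPM in WT and 0.131 CPM in S55L, while Ddx3y had 5 counts over the S55L libraries.

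The same genotypes were read after pregnancy in 4 WT PP and 4 S55L PP libraries, which share no library with the naive groups. Plate columns differed by genotype here too, with WT PP 1 in column 2 and WT PP 3 to 5 in column 1. S55L PP 5 lay in column 2 and S55L PP 1, 3 and 4 in column 3. Reads mapped at several places made up 24.9% to 27.3% of each WT PP and 17.5% to 19.97% of each S55L PP library. The part of plate column and of such library differences in the overlap of calls below was not tested. For none of the 11945 genes was the genotype difference called different between naive and postpartum hearts (edgeR quasi-likelihood interaction test, 0 called). At an unadjusted p under 0.05 there were 444 such genes (3.72%), and DESeq2 called 1. The median SE of that difference was 0.33 on the log2 scale, so small differences were not detectable. The nearest to a call was Ucp3, a mitochondrial carrier of muscle, at -1.63 in naive and 0.12 in postpartum hearts (adjusted p = 0.074). Of the 5192 naive calls 5088 had the same sign postpartum and 3215 were also called there in the same direction, which is 61.9% of the naive and 85.3% of the 3767 postpartum calls (31.5% of the genes tested), and none in the opposite direction. Of the 568 naive calls of at least 4-fold, 525 were called postpartum. For single genes the pair of log2 fold changes, naive first, was 3.52 and 2.31 for Kcne1, -3.31 and -3.81 for Gpr22, 3.32 and 3.02 for Gbe1, -3.37 and -3.78 for Rpl3l, -2.30 and -2.39 for Hopx and 3.87 and 4.20 for Sfrp2.

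**Figure D5:**
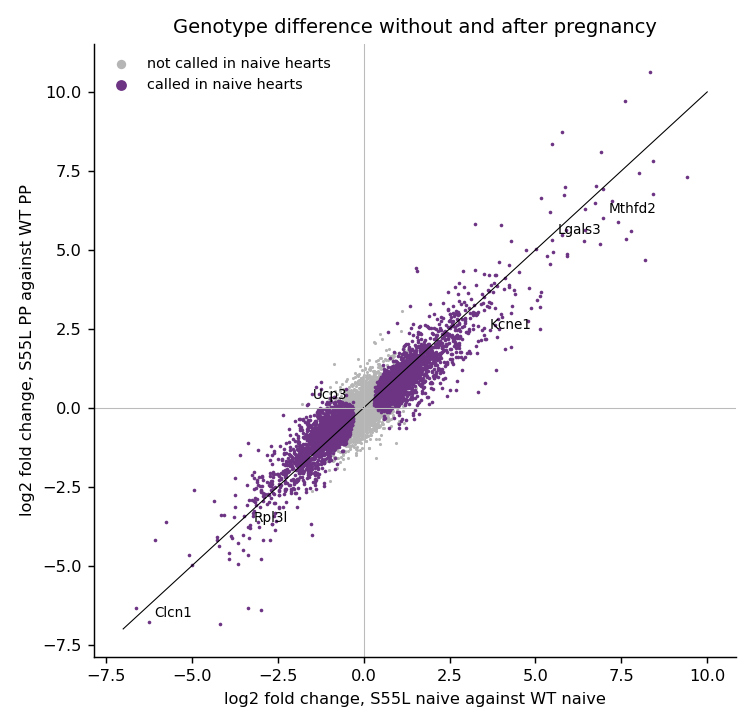
Genotype difference of each gene tested as a log2 fold change of S55L over WT, in naive hearts (x axis) and in postpartum hearts (y axis). Purple points were called in naive hearts, grey points were not, and the diagonal marks equal differences. Ucp3 lies off the diagonal, at -1.63 and 0.12.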

How the data were processed

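Heart RNA of 5 S55L naive and 5 WT naive samples was analysed, with 4 WT PP and 4 S55L PP libraries in the same fit. The authors deposited unnormalized read counts for each gene, made with HTSeq 0.6.1 after Trimmomatic 0.39 and STAR 2.7.0f on GRCm39.p6, per the submitters' processing notes, which also list DESeq2 as 3.21. The annotation release, strand setting and counting mode are not given in the sources used here, which leaves genes that overlap or resemble each other uncertain. Pooling or duplicate removal is not stated per the labels' protocols. Columns 1 and 2 of WT PP, and of S55L PP, held identical counts and were used once, as 1 library each. The diet study was not used here. HTSeq summary lines stayed out: beside reads at several places, reads on several genes made up 5.61% to 6.67% in WT naive and 4.98% to 5.54% in S55L naive libraries, while 7.11% to 10.1% and 6.41% to 8.05% lay outside genes. No naive library was a copy of another of its genotype (chi-square per gene of 2.16 or more).

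Symbols of 51487 of 78258 IDs, with 99.4% of the reads on genes, came from GENCODE M21 (GRCm38) by Ensembl ID. Genes were filtered with filterByExpr, TMM-scaled and compared by quasi-likelihood F tests of edgeR 4.0.16 (R 4.3.3; robust glmQLFit, 1 coefficient per group), with Benjamini-Hochberg adjustment over 11945 genes and a threshold of 0.05. SE comes from the log2 fold change over the root of F. CPM are mean ± SD over 5 libraries. The common biological coefficient of variation was 0.199. Floors take 3 counts over a group, and intervals at 1 to 3 counts are exact binomial, both for counting error only. The test was also run on simulated counts, with means and spread taken from the fit to these data.

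Members and gene lists (70, in which 14 symbols matched no gene) were chosen with earlier results of these data known, so lists are described by counts and medians and not tested. Genes named are the 20 largest rises and falls with at least 5 CPM and a proper symbol, the 12 largest gains and losses in CPM, up to 5 called members per list with at least 2 CPM, the 10 most abundant genes absent in 1 genotype, up to 10 genes with a 95% interval within 0.25 either side of 0, Chchd10 and sex-chromosome genes. Some genes that the rule takes are not reported here. Other genes named were chosen after their values were seen. Alternatives were DESeq2 1.42.0 and its size factors, total counts, no filter, naive libraries only, all columns, a plate column term, a replicate block, thinning to 1418715 reads, no mitochondrially encoded genes, each naive library left out, and S55L libraries split by the length of a code in the column name. Promoter windows are RefSeq's on GRCm38.p6.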

Additional observations from a re-analysis of the deposited data

Results flagged for a closer look

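Of 638 checks, 1 for each gene named by rule in each group of 5 libraries, 51 found a library whose gap to the nearest other library was over 0.71 of the group's range. Chance gives about 1 in 20 for normally distributed values, which low counts are not. Where a group held 1 count in all, as WT naive for Ltbp2, Slc7a5, Dusp4 and Vmn2r3 and S55L naive for Clcn1, the library with it is flagged by construction. WT naive 1, the library that also stood apart on the second principal component, held 20 of them and S55L naive 3 held 9. Values are CPM of that library. WT naive 1 was the highest of its group for Acvr2b (15.97), Cd36 (835), Eif4g1 (411), Fxr1 (502), Itga7 (422), Ltbp2 (0.515), Mir133a-1hg (35.0), Pla2g5 (43.8), Slc7a5 (0.515), Tek (35.5) and Xist (370.4), and the lowest for Cox6a2 (8492), Dgat2 (243), Itgb1 (199.9), Msmo1 (1.03), Mthfd2 (0), Prkar1a (282), Tie1 (48.4), Ttll1 (41.7) and mt-Nd1 (19130.4). S55L naive 3 was the highest of its group for Acvr2b (4.91), Carns1 (63.8), Csf1r (258), Egfl7 (57.3), H2-M3 (4.46), Jup (36.8) and Psmb10 (103), and the lowest for Slc1a4 (7.14) and Wdr75 (12.04). WT naive 3 was the highest of its group for Ccn4 (8.19), Map1a (9.36), P2ry12 (2.92) and Vmn2r3 (0.585), and the lowest for Rbm20 (76.0). S55L naive 5 was the highest of its group for Adgre1 (44.0), Ccl12 (12.9), Pmp22 (208) and Slc30a1 (24.2). WT naive 4 was the highest of its group for Dusp4 (0.574), Flvcr2 (13.2), Gpnmb (1.15) and Phka1 (43.0). S55L naive 4 was the highest of its group for Dgat2 (406), Pdp2 (26.2) and Slc25a4 (7509). WT naive 2 was the highest of its group for Gyg (106) and Lyve1 (30.2), and the lowest for Cx3cr1 (0). S55L naive 1 was the highest of its group for Clcn1 (0.208), and the lowest for Prox1 (98.8). WT naive 5 was the highest of its group for Gsta2 (2.47).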

How the results depend on the processing

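The numbers reported were 5192 genes called, 2614 higher and 2578 lower, and 0 for the difference from postpartum hearts. With total counts as the scaling 4013 were higher and 1481 lower (5494 in all). With the plate column as a term 2873 were called, 1386 higher and 1487 lower, and 2 for the difference from postpartum hearts, where DESeq2 called 1. Leaving out 1 naive library at a time gave 4564 (without WT naive 1) to 4967 calls, 2341 to 2515 higher, 2223 to 2452 lower and 0 to 1 for the difference from postpartum hearts, the 1 being without WT naive 5. Thinned counts gave 4120 calls, no filter on low counts 5628 (59.1% higher), and the 2 subsets of S55L libraries by the length of a code in their column names 3654 and 4169. In none of the 22 alternatives was a gene called in the opposite direction to its main call. With a replicate block the calls numbered 5173. The title numbers were checked for pairing. Same-numbered libraries correlated at -0.10 to 0.08 in their deviations from the group mean, and libraries of different numbers at -0.15 to 0.21. No pairing by number was visible, which does not settle whether the samples were paired. Of the genes named by rule 227 kept direction and call with the plate column as a term, 87 lost the call and 5 changed sign: Hba-a1 (0.92), Hba-a2 (1.30), Igfbp5 (-0.046), Pde3b (-0.17) and Wif1 (-0.32). The cause was not tested. For the naive comparison that term rests on 1 library, WT PP 1 in column 2, against the WT PP libraries in column 1. The S55L PP libraries hold none in column 1 and do not inform that step. The median SE of a log2 fold change was 0.41 under 5 CPM and 0.15 between 100 and 500 CPM, so that depth limits the less expressed genes. The difference from postpartum hearts was recomputed with DESeq2 and its size factors, total counts, the plate column term and each naive library left out, and not under the other alternatives.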

Other observations

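Imprinted and developmental growth genes differed seldom, with 3 of 19 higher and 2 lower. Grb10, an adaptor that dampens insulin and IGF signalling, was higher in S55L going from 42.9 ± 5.88 to 107 ± 11.53 CPM (log2 change 1.31, standard error 0.14, adjusted p = 3.6e-08). Airn, a noncoding transcript of the Igf2r cluster, was lower and went from 50.1 ± 4.92 to 18.0 ± 2.61 CPM (log2 change -1.48, standard error 0.19, adjusted p = 5.1e-07). Of 18 creatine, adenylate kinase and carnosine genes 3 rose and 5 fell (4 and 4 with total counts). Adenylate kinase Ak1 went from 502 ± 25.8 to 204 ± 14.6 CPM (log2 change -1.30, standard error 0.15, adjusted p = 1.5e-07), and Gatm, which makes the creatine precursor, from 1.45 ± 0.481 to 6.205 ± 1.62 CPM (log2 change 2.02, standard error 0.42, adjusted p = 3.3e-04). Of 40 genes of purine and pyrimidine metabolism 10 rose and 3 fell, near the background of 21.9% for higher calls. Uck2, which salvages uridine and cytidine, and Nme1, a nucleoside diphosphate kinase, rose by 1.61 and 1.64, and Dut, which removes dUTP, was at -1.05. In the list of YAP and mechanical response genes 9 of 25 rose and 4 fell, with Birc5, the survivin gene of dividing cells, going from 0.646 ± 0.674 to 5.11 ± 1.23 CPM (log2 change 2.81, standard error 0.62, adjusted p = 6.9e-04). In the fit with a plate column term, Gatm (1.0) was not called.

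A pair of transcripts without a proper symbol fell further than the 20 largest falls named by rule, and was picked out after its values were seen. Gm34302 read 207, 137, 159, 116 and 121 CPM in WT naive 1 to 5 and 0.417, 0.357, 0.669, 2.56 and 3.71 CPM in S55L naive 1 to 5 (log2 change -6.63, standard error 0.42, adjusted p = 6.6e-10), and 145 CPM on average in WT PP against 1.77 CPM in S55L PP. ENSMUSG00000120208 read 76.2, 139, 122, 125 and 161 CPM in WT and 3.54, 1.79, 4.01, 7.39 and 3.27 CPM in S55L libraries (log2 change -5.01, standard error 0.42, adjusted p = 4.5e-08). Both were abundant in every WT naive library and low in every S55L naive library.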
